A study of Mus musculus with 6 samples.

Results

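The genes of MHC class I antigen presentation and of the immunoproteasome were examined in sorted hematopoietic stem cells (HSCs) labelled as WT or as deficient in *Med23* (KO), which encodes a subunit of the Mediator complex. The 10 genes were chosen by name: *H2-K1* and *H2-D1*, which encode the class I heavy chains; *B2m*, the light chain; *Tap1*, *Tap2* and *Tapbp*, which deliver and load peptides; *Nlrc5*, a regulator of class I transcription; and *Psmb8*, *Psmb9* and *Psmb10*, the catalytic subunits of the immunoproteasome. Each symbol named 1 of the 34745 genes in the deposited tables, and all 10 genes were among the 12513 that passed the filter on low counts.

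Class I molecules display short peptides from the cell's own proteins on nearly every nucleated cell. The proteasome cuts the proteins, the TAP1 and TAP2 transporter carries the peptides into the endoplasmic reticulum, and tapasin, the product of *Tapbp*, holds the transporter next to the empty heavy chain and its light chain until a peptide fits. The immunoproteasome subunits replace their constitutive counterparts in cells of the immune system and after exposure to interferon, and NLRC5 drives transcription of several of these genes together.

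The libraries came from bone marrow HSCs of adult C57BL/6 mice, 3 WT and 3 KO. The genotype of the WT mice is given as Med23floxp/flowp, so both of their *Med23* alleles carried loxP sites, and by the methods they lacked Cre. The KO mice were Mx1-cre;Med23floxp/flowp. Mx1-cre is switched on by interferon and was induced in the study with poly(I:C), a synthetic double-stranded RNA that itself induces interferon. Whether the WT mice of these libraries also received poly(I:C), and how long after it the cells were sorted, is not stated for the RNA-seq, so an effect of the injection and one of the deletion cannot be told apart if it was not given to both. HSCs were sorted as CD34-CD150+CD48- cells of the LSK fraction (lineage-negative, Sca1-positive, cKit-positive). In such bulk libraries fewer cells of a type and less RNA per cell cannot be told apart.

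Between 3537269 and 8131344 reads per library were counted on genes, with the fewest in WT replicate 3. *Med23* itself, counted over the whole gene, did not separate the groups. Such a count does not show whether the part between the loxP sites was lost, which was not tested here. In the hematopoietic system of the KO mice, the paper reports efficient ablation of *Med23* after poly(I:C). In normalized CPM, which are counts scaled to a common library size with edgeR's TMM factors, its level was 47.6, 70.8 and 24.1 in WT and 31.6, 29.9 and 36.8 in KO (here and below in the order of replicates 1 to 3), so the library labelled WT replicate 3 had less *Med23* than each KO library. That library is therefore both kept and left out where a direction depends on it. It also differed from WT replicates 1 and 2, as KO replicate 3 did from the other KO libraries, in lacking reads from 4 Y-linked genes (1 and 0 counts, against at least 1036 elsewhere). The 11 HSC markers summed to between 2890 and 3440 CPM and none was at 0 in all libraries. This sum covered shifts in opposite directions without overlap between groups. *Hlf*, *Ly6a* and *Kit* fell in KO (log2 fold changes, KO over WT, of -0.81, -0.78 and -0.38). *Mecom* and *Hoxa9* rose (0.61 and 0.46), and the remaining HSC markers overlapped. No HSC marker passed the test described below, so a similar sum does not show that the sorted populations matched. Of markers of other cells, T cell markers reached at most 9.64 CPM with 4 of 6 at 0 throughout, B cell markers 44.3 to 73.5 CPM and monocyte markers 2.26 to 30.1 CPM. Most of the B cell sum was *Cd79b*, with *Ms4a1* and *Pax5* at 0 throughout. Granulocyte markers stood at 2.58 to 11.7 CPM except for 209 CPM in KO replicate 3, and class II antigen-presenting markers at 628 to 2090 CPM with the groups overlapping. Nearly all of the class II sum was *H2-Aa*, *H2-Ab1*, *H2-Eb1* and *Cd74*. On the same list *Itgax* and *Siglech* were at 0 throughout, and *Xcr1* and *Cd209a* had at most 2 and 4 counts. The groups did separate in muscle markers, 112 to 282 CPM in WT against at most 4.73 CPM in KO, and in megakaryocyte markers, 142 to 220 CPM in WT against 262 to 342 CPM in KO. In muscle markers WT replicate 3, at 282 CPM, was thus on the side of its label, unlike in *Med23*. Most of the megakaryocyte sum was *Itga2b* (166, 76.3 and 106 CPM in WT, 259, 163 and 207 CPM in KO). Its groups overlapped only because KO replicate 2 was just below WT replicate 1 (log2 fold change 0.85, SE 0.31). *Gp9* and *Ppbp* were higher in KO without overlap (log2 fold changes 0.53, SE 0.34, and 2.39, SE 0.93). *Gp1bb* overlapped, and *Pf4* was not higher in KO (22.1, 23.1 and 42.3 CPM in WT, 24.3, 22.6 and 27.9 CPM in KO). None of these megakaryocyte markers passed the test described below. The part of these markers in the values below was not tested.

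The promoters show what several of these genes have in common. In class I genes and *B2m*, a Y box (ATTGG, or CCAAT on the other strand), which NF-Y binds, lies beside an element with the letters TGACG of a cAMP response element, and NLRC5 acts through factors bound to this block. Promoter sequences of RefSeq (GRCm38.p6) were found for 8 of the 10 genes, not for *Tap2* or *Nlrc5*. In the 250 bases before the transcription start, *H2-K1*, *H2-D1* and *B2m* each had TGACG and ATTGG at the same spacing, 25 bases from the first letter of one to the first letter of the other. The 30 bases from TGACG to ATTGG, both in capitals, are shown because the letters at each end and the distance are what these 3 genes have in common.
H2-K1, chr17:34000359-34000388, minus strand: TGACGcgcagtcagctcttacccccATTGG
H2-D1, chr17:35262993-35263022, plus strand: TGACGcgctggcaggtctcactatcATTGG
B2m, chr2:122147609-122147638, plus strand: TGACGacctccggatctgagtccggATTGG

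Between the paired elements, *H2-K1* and *H2-D1* had the same base at 13 of 20 positions, *H2-K1* and *B2m* at 3 of 20 and *H2-D1* and *B2m* at 2 of 20. For *H2-K1*, with a pair of listed starts, the stretch began 41 bases before the one used here and 55 before the other. It began 101 bases before the start of *H2-D1* and 78 before that of *B2m*. In GENCODE M21 the *H2-D1* gene begins further upstream, which places its stretch in the annotated 5' untranslated part of the first exon, whereas the other two lie upstream of their genes. Taken alone these letters are common: searched on both strands, ATTGG was present in 33.8% and TGACG in 17.8% of 32851 promoter windows. The pair at this spacing and in this orientation was found in 18 windows, 0.0548% of all. Spacing and orientation were taken from *H2-K1*, *H2-D1* and *B2m* themselves, so that these genes match was fixed by the choice.

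The 18 windows belonged to 15 genes, of which 12 were tested. Besides *H2-K1*, *H2-D1* and *B2m*, they included the nonclassical class I gene *H2-M3* and the MHC-linked gene *Trim26*, with the others outside the class I pathway by name. None of the 12 differed between WT and KO without overlap or passed the test. Of all genes, 6.25% were higher and 6.15% lower in KO without overlap, and 0.0719% passed, so this absence says little. Their median log2 fold change (KO over WT), with *H2-K1*, *H2-D1* and *B2m* included, was 0.16, against -0.01 for all genes. The whole upstream windows of *H2-K1* and *B2m* are given with every match in capitals, to show what else lies near the block.
H2-K1, chr17:34000348-34000597, minus strand: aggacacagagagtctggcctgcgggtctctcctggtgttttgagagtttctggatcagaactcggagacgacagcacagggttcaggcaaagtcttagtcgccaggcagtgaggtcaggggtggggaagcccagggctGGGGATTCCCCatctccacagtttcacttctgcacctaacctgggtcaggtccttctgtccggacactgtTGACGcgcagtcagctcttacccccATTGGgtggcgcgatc
B2m, chr2:122147437-122147686, plus strand: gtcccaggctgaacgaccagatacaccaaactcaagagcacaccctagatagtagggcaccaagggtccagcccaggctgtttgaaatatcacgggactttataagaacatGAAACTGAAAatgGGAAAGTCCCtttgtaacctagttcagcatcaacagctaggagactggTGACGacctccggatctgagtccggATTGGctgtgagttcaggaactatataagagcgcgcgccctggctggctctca

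The first capitals in *H2-K1* are a pair of overlapping matches to the NF-kB consensus, which was also matched in *H2-D1* and is present in 7.25% of windows. *B2m* has in order an interferon-stimulated response element (ISRE, GAAANNGAAA; 2.98% of windows), an NF-kB match, TGACG and ATTGG. A gamma-activated sequence (GAS, TTCNNNGAA; 7.02% of windows) was matched in *Psmb8* alone among the 8 genes. *Tap1* and *Psmb9* are transcribed away from each other and their windows overlap, so that TGACG and the Y box in the one are those in the other. They stand at another spacing. A match describes letters only, and a variant with other letters was not searched for. The absence of a match, such as to the ISRE in *H2-K1* and *H2-D1*, therefore does not show that a gene lacks the element. None of these elements was assayed for binding here.

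Class I RNA was abundant in HSCs of both genotypes. *B2m*, *H2-D1* and *H2-K1* ranked 3, 4 and 5 of the 12513 tested genes by mean CPM. By mean FPKM, which is scaled by gene length as well, they ranked 3, 10 and 54. Together they took 0.872, 0.781 and 0.738% of all counts in the WT libraries, against 1.0, 0.86 and 1.01% in the KO libraries. All 10 genes took 1.09, 0.957 and 0.935% in WT and 1.22, 1.06 and 1.25% in KO, so that KO replicates 1 and 3 lay above every WT library and KO replicate 2 below WT replicate 1. These shares are of a total in which Gm26917 and Gm42418 alone took 7.66, 10.5 and 18.1% in WT and 6.11, 6.14 and 12.0% in KO. With those genes left out of the total, the 10 genes took 1.18, 1.07 and 1.14% in WT and 1.3, 1.13 and 1.43% in KO, and WT replicate 3 was no longer the lowest library. Every one of the 10 genes had at least 291 counts in each library, for which counting error alone would give a coefficient of variation of at most 5.86%. Between replicates of a group the coefficient ran from 6.15 to 34.4%, so replicate spread and not depth set the precision.

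No gene of the 10 passed the test between KO and WT. The quasi-likelihood test of edgeR, adjusted over all genes by the Benjamini-Hochberg method, called 0 of 10. It called 9 of all 12513 genes, 0.0719%. Among these were the muscle genes *Acta1*, *Actc1* and *Myh3*, which had at most 1 count in any KO library. DESeq2 also called 0 of 10, beside 120 of 12500 genes, 0.96%. No gene was at an unadjusted edgeR p under 0.05, compared with 715 of all genes. In no gene did the groups separate without overlap, a pattern seen for 6.25% of all genes with KO higher and 6.15% with KO lower. With so few calls among all genes, the absence of calls says little by itself, and the intervals carry more. The 95% interval of the fold change stayed within 2-fold in both directions for 9 of the 10 genes. The exception was *Nlrc5*, whose upper bound was 2.57.

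**Figure D1:**
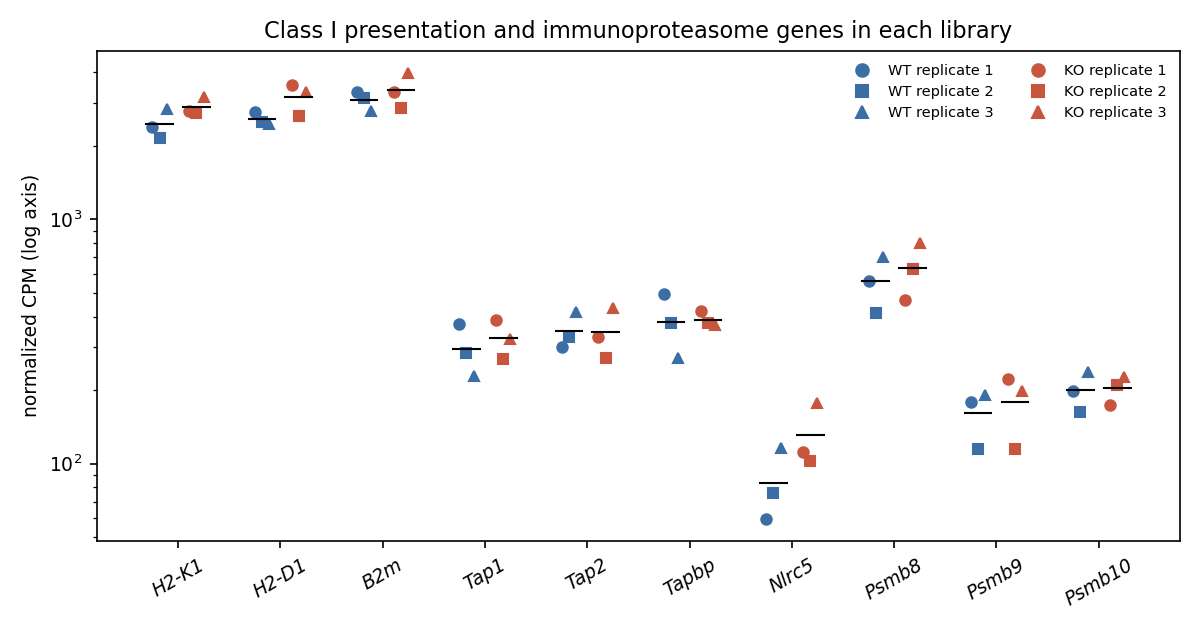
Normalized CPM on a log axis for each of the 10 genes; blue points are WT and red points KO libraries, with a marker shape per replicate number, and black bars are group means (n = 3). *B2m*, *H2-D1* and *H2-K1* lie between 2162 and 3978 CPM, *Nlrc5* is lowest, and for no gene do all KO points lie to one side of all WT points.

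The heavy chains were slightly higher on average in KO, by less than could be told from replicate spread. *H2-K1* (ENSMUSG00000061232, chr17:33996017-34000347, minus strand) was at 2395, 2162 and 2824 CPM in WT and 2787, 2735 and 3177 CPM in KO. KO replicates 1 and 2 were above WT replicates 1 and 2 but below WT replicate 3. The log2 fold change was 0.24 with a standard error (SE) of 0.17, a 95% interval from -0.13 to 0.60 and an adjusted p of 0.989 by edgeR. Leaving out 1 library at a time gave 0.15 (without WT replicate 2) to 0.35 (without WT replicate 3).

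*H2-D1* (ENSMUSG00000073411, chr17:35262730-35267499, plus strand) was at 2757, 2511 and 2461 CPM in WT and 3554, 2653 and 3342 CPM in KO. Here WT replicate 3 was the lowest library, and the overlap came from KO replicate 2, which was below WT replicate 1. The log2 fold change was 0.31 (SE 0.17, interval -0.06 to 0.67, adjusted p = 0.940 by edgeR), and from 0.22 to 0.42 with 1 library left out. *H2-K1*, *H2-D1* and *Nlrc5* were the 3 of the 10 genes whose estimate stayed above 0 under every alternative computed.

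Reads of the heavy chains can be shared within the family. Of the 50-base words in the coding transcripts of *H2-K1*, 6.87% also occur in another gene, mostly *H2-D1*, and of those of *H2-D1*, 13.9% do, 6.68% in *H2-Q1* and 5.58% in *H2-K1*. For 100-base words the shares were 0 and 4.09%. *B2m*, *Nlrc5* and *Psmb10* share no such word.

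The light chain *B2m* (ENSMUSG00000060802, chr2:122147686-122153083, plus strand) was at 3337, 3136 and 2780 CPM in WT and 3337, 2874 and 3978 CPM in KO. The groups overlapped throughout, with KO replicate 2 below WT replicates 1 and 2. Its log2 fold change was 0.14 (SE 0.17), and the interval, -0.24 to 0.52, leaves room for a fold between 0.845 and 1.44 (adjusted p = 0.997 by edgeR). Leaving out 1 library at a time gave 0.014 (without KO replicate 3) to 0.25 (without KO replicate 2), and without both libraries numbered 3 the estimate was -0.05.

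*Nlrc5* (ENSMUSG00000074151, chr8:94434356-94527272, plus strand), the transactivator, had the lowest level and the largest estimate of the 10 genes. It was at 59.7, 75.7 and 115.6 CPM in WT and 111.6, 103.0 and 177.7 CPM in KO. All KO libraries were above WT replicates 1 and 2, and WT replicate 3 was above KO replicates 1 and 2. The log2 fold change was 0.65 (SE 0.32, interval -0.06 to 1.36, adjusted p = 0.925 by edgeR and 0.800 by DESeq2), and the exact two-sided permutation test gave p = 0.3, where 0.1 is the smallest value that 3 against 3 samples allow. Leaving out 1 library at a time gave 0.37 to 0.95, the highest without WT replicate 3. That library had less *Med23* than each KO library, but its muscle markers were on the side of WT. An exon of the antisense gene 9330175E14Rik overlaps *Nlrc5*, and 23 to 279 reads per library were counted on it.

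The transporter genes and tapasin did not move in a common direction. *Tap1* (ENSMUSG00000037321, chr17:34187553-34197225, plus strand) was at 372.3, 282.9 and 228.1 CPM in WT and 386.8, 267.7 and 323.6 CPM in KO. *Tap2* (ENSMUSG00000024339, chr17:34203527-34216321, plus strand) was at 301.2, 331.0 and 416.3 CPM in WT and 331.2, 270.3 and 435.7 CPM in KO. WT replicate 3 thus had the least *Tap1* and the most *Tap2* of the WT libraries, whose products form a dimer. *Tapbp* (ENSMUSG00000024308, chr17:33915899-33929292, plus strand) was at 493.3, 375.1 and 271.4 CPM in WT and 421.6, 375.6 and 370.9 CPM in KO, all KO values lying inside the WT range.

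The log2 fold changes were 0.15 (SE 0.24, interval -0.38 to 0.67) for *Tap1*, -0.02 (SE 0.23, interval -0.53 to 0.50) for *Tap2* and 0.04 (SE 0.23, interval -0.49 to 0.56) for *Tapbp*, each with an adjusted p of 0.997 by edgeR. Without WT replicate 3 these became -0.01, 0.13 and -0.16, so none of their directions was settled. The ratio of *Tap1* to *Tap2* FPKM (counts scaled by gene length and library total) was 0.564, 0.390 and 0.250 in WT and 0.533, 0.452 and 0.339 in KO. In both groups it was highest in replicate 1 and lowest in replicate 3. Of the 50-base words of *Tapbp*, 22.4% occur elsewhere, chiefly in the gene Gm19412 on the other strand, which had at most 14 counts in any library. *Tap2* shares exon sequence with Gm15821, which had at most 27.

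Among the immunoproteasome subunits, *Psmb8* and *Psmb9* varied the most between libraries of all 10 genes after *Nlrc5*. *Psmb8* (LMP7, ENSMUSG00000024338, chr17:34197721-34201454, plus strand) was at 557.7, 414.3 and 701.3 CPM in WT and 467.6, 625.7 and 803.0 CPM in KO. *Psmb9* (LMP2, ENSMUSG00000096727, chr17:34181987-34187764, minus strand) was at 178.6, 115.2 and 190.4 CPM in WT and 222.0, 115.0 and 198.3 CPM in KO. The highest library had 1.94 times the lowest for *Psmb8* and 1.93 times for *Psmb9*, and the low *Psmb9* values were replicate 2 of each group. *Psmb10* (MECL-1, ENSMUSG00000031897, chr8:105935735-105938444, minus strand) was at 198.9, 162.3 and 237.4 CPM in WT and 173.4, 210.4 and 227.0 CPM in KO.

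The estimates were 0.18 (SE 0.26, interval -0.39 to 0.75) for *Psmb8*, 0.15 (SE 0.29, interval -0.51 to 0.80) for *Psmb9* and 0.03 (SE 0.22, interval -0.46 to 0.52) for *Psmb10* on the log2 scale, all with an adjusted p of 0.997 by edgeR. Exons of *Psmb9* and *Tap1* overlap on opposite strands, where reads cannot be told apart if strand was not used in counting, and 9.71% of the 50-base words of *Psmb9* are also in *Tap1*. In normalized CPM these neighbours were unlike across the WT libraries, *Psmb9* being low in WT replicate 2 and *Tap1* in WT replicate 3. Across the KO libraries they had the same order, both being highest in KO replicate 1 and lowest in KO replicate 2. The part of shared reads in either gene was not tested.

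**Figure D2:**
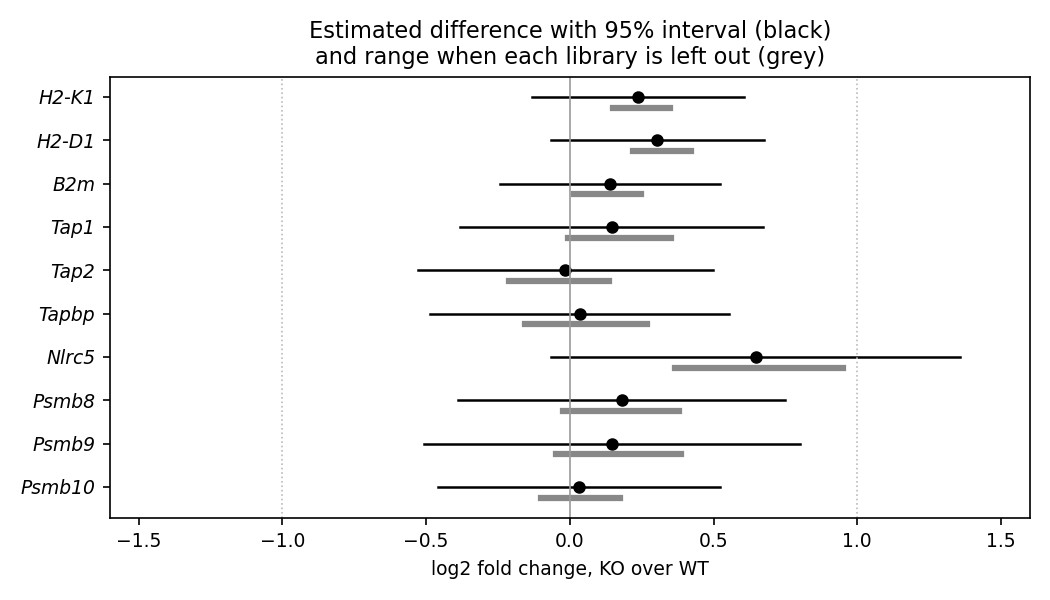
Log2 fold change, KO over WT, for each gene (black point) with its 95% interval (black line) and, in grey, the range of the estimate when each of the 6 libraries is left out in turn; dotted lines mark 2-fold. All 10 intervals include 0, and only that of *Nlrc5* passes a dotted line.

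Across the 10 genes, 9 estimates were above 0, compared with 49.5% of all genes tested, and the median was 0.15 against -0.01 for all genes. The genes were measured in the same libraries, so their signs are not independent of one another. Between replicates of a group, the same median had an SD of 0.158 on the log2 scale. That SD is for single libraries, whereas the estimates compare means of 3 libraries, so it is no test of the median. KO replicate 3 was the highest of the 6 libraries for 5 of the genes and KO replicate 1 for 3. WT replicate 3 was the lowest for 4, WT replicate 2 for 3 and KO replicate 2 for 2. KO replicate 2 lay below KO replicate 1 for 8 of the 10 genes.

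Levels of different genes can be compared only per length, and here the length mattered. The lengths implied by the deposited FPKM values were 1.48 to 4.66 times the longest annotated coding transcript for 8 of the 10 genes, and for *H2-K1* the implied length, 7271 bases, was longer than the whole gene, 4331 bases. The same held for *Tap1* (11741 against 9673 bases), *Psmb8* (3848 against 3734) and *Psmb9* (6303 against 5778), and among the constitutive subunits used below for *Psmb6* (3107 against 2492). In the deposited FPKM, *B2m* averaged 3757, *H2-D1* 925.7 and *H2-K1* 366.7 over the 6 libraries, and the *H2-D1* to *H2-K1* ratio was 2.48 ± 0.385 in WT and 2.57 ± 0.369 in KO (SD, n = 3). With the longest coding transcript as length, an alternative chosen after seeing the data, *H2-K1* averaged 1647 and *H2-D1* 1368, and the ratio was 0.818 ± 0.127 in WT and 0.847 ± 0.122 in KO. The order of the heavy chains therefore turned with the length used, while *B2m* was above both with either. Differences between WT and KO do not depend on the length.

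Immunoproteasome subunits were measured against the constitutive subunits that they replace, *Psmb5*, *Psmb6* and *Psmb7*. The *Psmb8* to *Psmb5* ratio of FPKM was 2.045, 1.734 and 1.861 in WT and 2.09, 1.98 and 2.24 in KO (1.88 ± 0.157 and 2.10 ± 0.130, SD, n = 3). The ratio was above 1 in every library, and KO replicate 2 fell below WT replicate 1. The *Psmb10* to *Psmb7* ratio was 5.14, 5.42 and 6.95 in WT and 5.16, 6.11 and 7.62 in KO, with replicate 3 highest in both groups. The *Psmb9* to *Psmb6* ratio was below 1 throughout, at 0.367, 0.265 and 0.378 in WT and 0.555, 0.237 and 0.440 in KO.

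With the longest coding transcript as length, the ratios ran from 4.23 to 5.46 for *Psmb8*, 1.62 to 2.40 for *Psmb10* and 0.284 to 0.665 for *Psmb9*, so each kept its side of 1. These sides rest on the counts given to the counterparts. Of the 50-base words of *Psmb5*, 54.1% also occur elsewhere, mostly in Gm3375, and of those of *Psmb7*, 28.1% occur in *Nek6*, so the ratios over these genes, and whether they lie above 1, are uncertain. The constitutive subunits themselves had log2 fold changes of 0.02, -0.09 and -0.07 (*Psmb5*, *Psmb6* and *Psmb7*; SE of *Psmb5* 0.31), and none passed the test.

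**Figure D3:**
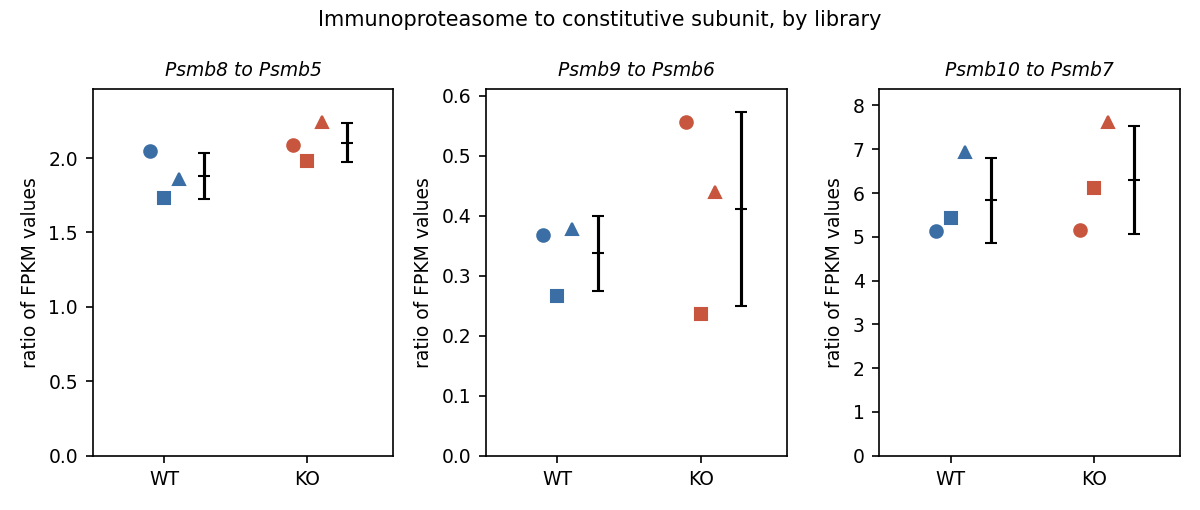
Ratio of the FPKM of each immunoproteasome subunit to that of its constitutive counterpart in each library (WT blue, KO red, marker shape by replicate number), with the group mean and SD (n = 3) as a black bar beside the points. The *Psmb8* and *Psmb10* ratios are above 1 and the *Psmb9* ratio below 1 in all 6 libraries, and the groups overlap in each panel.

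The rest of the pathway was read from 9 further lists holding 130 genes, of which 123 were tested. None was called by edgeR or DESeq2, and 1 was at an unadjusted edgeR p under 0.05. Without overlap between groups, 5 were higher and 4 lower in KO, beside 6.25% and 6.15% of all genes. Genes of these lists are described in full where the groups did not overlap and the mean was at least 10 CPM, and others are named with their estimate as examples.

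Among nonclassical class I genes, 13 of 19 were tested and 9 estimates were above 0, with a median of 0.17. *H2-T23* (ENSMUSG00000067212, chr17:36029773-36032855, minus strand), which encodes Qa-1, the ligand of inhibitory receptors on NK cells, was at 245.0, 234.4 and 251.9 CPM in WT and 352.3, 296.1 and 401.9 CPM in KO. The replicates of WT were close together and every KO library was above them. The log2 fold change was 0.52 (SE 0.20, interval 0.09 to 0.96), and after adjustment over all genes it did not pass (adjusted p = 0.757 by edgeR and 0.482 by DESeq2). Leaving out each library in turn gave 0.42 to 0.63. *H2-T24*, a class I gene of the same region, was at 13.3, 18.4 and 14.8 CPM in WT and 32.6, 23.3 and 28.1 CPM in KO (log2 fold change 0.85, SE 0.41, adjusted p = 0.921 by edgeR).

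Part of this family cannot be counted apart. *H2-T23* shares 29.8% of its 50-base words with other genes, the most with H2-T-ps at 12.9%, and *H2-T24* shares 3.17%. The remaining nonclassical genes ran from -0.78 for *Hfe* to 0.48 for *Mr1*, named here after their values were seen, and the abundant *H2-Q4*, *H2-Q6* and *H2-Q7* stood at 0.17, -0.0041 and -0.14. As 34.9 to 39.2% of the words of these *H2-Q* genes are found in other genes, their separate counts are uncertain.

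Of 12 peptide loading and trimming partners, 12 were tested, and the median log2 fold change was 0.06. *Lnpep*, an aminopeptidase of endosomes linked to cross-presentation, was at 183.7, 159.6 and 105.4 CPM in WT and 281.2, 192.7 and 198.1 CPM in KO, with no overlap (log2 fold change 0.58, SE 0.26, interval -0.003 to 1.16, adjusted p = 0.881 by edgeR). The chaperones calreticulin and calnexin (*Calr* and *Canx*) were at 0.03 and -0.17.

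No gene of the proteasome lists outside the immunoproteasome was called. Their signs come from the same libraries and are not independent of one another. The 19S regulatory particle, which unfolds substrates, had a median of -0.15 with 15 of 18 estimates below 0; the other subunits of the 20S core had -0.09 with 7 of 11 below 0. Activators and assembly factors had -0.17 with 6 of 9 below 0. The interferon-inducible activator subunits *Psme1* and *Psme2* were at -0.07 (SE 0.22) and -0.17 (SE 0.26). *Psmg1*, an assembly chaperone, was lower in every KO library (mean 77.4 ± 4.40 CPM in WT and 58.9 ± 5.41 CPM in KO, SD, n = 3; log2 fold change -0.39, SE 0.26, adjusted p = 0.989 by edgeR).

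No regulator upstream of class I was called either. Of 18 transcription factors of the class I promoter (among them RFX, CREB, NF-Y, IRF, STAT and NF-kB subunits), 11 estimates were above 0 and 7 below, with a median of 0.05. *Irf2*, which binds ISREs, averaged 224.6 ± 6.33 CPM in WT and 189.1 ± 20.3 CPM in KO, with no overlap (log2 fold change -0.25, SE 0.19, adjusted p = 0.989 by edgeR). *Ciita*, the class II counterpart of *Nlrc5*, had an estimate of -1.09 with an interval from -2.83 to 0.65. Interferon receptors and signalling genes had the highest median, 0.32, with 6 of 10 estimates above 0.

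Of 30 interferon-stimulated genes listed, 29 were tested, 14 estimates were above and 15 below 0, and the median was -0.01. *Ddx58*, the RNA sensor RIG-I, was at 101.7, 99.4 and 47.9 CPM in WT and 172.6, 122.1 and 113.3 CPM in KO (log2 fold change 0.71, SE 0.32, adjusted p = 0.897 by edgeR). *Bst2*, which tethers budding viruses, went from 123.4 ± 14.2 to 94.2 ± 14.4 CPM (log2 fold change -0.39, SE 0.24), and *Irgm1*, an immunity-related GTPase, from 116.5 ± 2.16 to 105.0 ± 5.15 CPM (log2 fold change -0.15, SE 0.22). None of the 3 passed the test, and the groups overlapped in none of them. *Mx1*, the gene whose promoter drives the Cre, also did not overlap but was barely detected, with 4, 13 and 8 counts in WT and 20, 16 and 20 in KO.

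**Figure D4:**
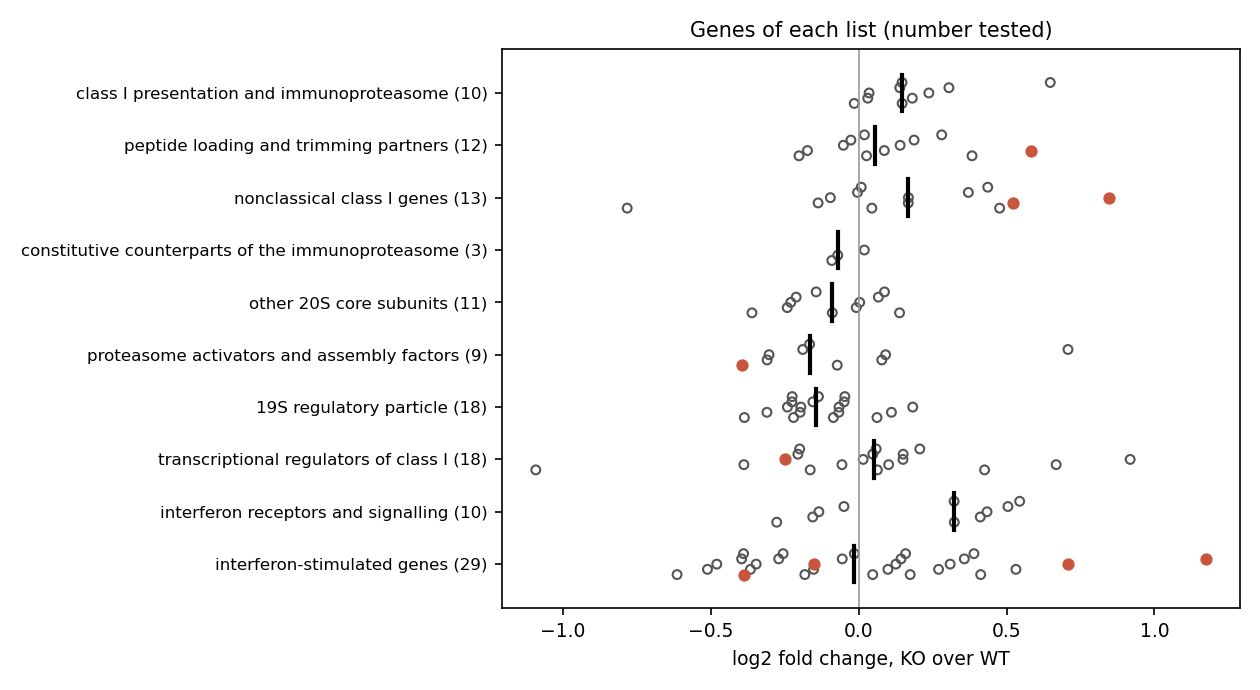
Log2 fold change, KO over WT, for every tested gene of the 10 genes and of 9 further lists (number tested in brackets); open circles are genes whose groups overlap, filled red circles genes whose groups do not, and black bars are list medians. The class I presentation genes lie around 0.15 with *Nlrc5* at 0.65, the 19S genes lie mostly below 0, and no plotted gene passed the test.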

How the data were processed

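Bulk RNA-seq of HSCs from 3 WT and 3 KO samples was analysed. The authors deposited raw read counts per gene and FPKM values, each of which equalled the count over the library total and a length that was fixed for the gene. The submitters' processing notes name TopHat, HTSeq and mm10; their versions, the annotation and the strand setting are not given in the sources used here. The labels describe SMART-Seq v4 amplification and the methods a TruSeq library, neither with molecular identifiers. The labels do not say that samples came from separate animals, so p-values may measure technical spread in part; replicate pairs differed by a chi-square of 25.5 to 52.5 per degree of freedom.

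For the main comparison, edgeR 4.0.16 under R 4.3.3 was run on the counts (filterByExpr, TMM, robust quasi-likelihood test, Benjamini-Hochberg adjustment over 12513 genes at 0.05). For single genes an exact two-sided permutation test was added, on log2(CPM + 0.5). Alternatives were DESeq2 1.42.0, other scalings and filters, a replicate block, limma 3.58.1 on log2(FPKM + 1), log2(FPKM + 0.1) or voom, and libraries left out. Coordinates and transcripts came from GENCODE M21 (GRCm38), where 34344 of 34745 identifiers were found, and promoters from RefSeq (GRCm38.p6).

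The genes, the lists and the tests were chosen with earlier results of these data known. Named were the 10 genes, their constitutive counterparts, *Psme1*, *Psme2*, *Med23* and, per list, up to 3 genes with the largest change among those with at least 10 CPM and no overlap between groups or with an adjusted p under 0.05; the sort markers *Ly6a*, *Kit* and *Slamf1* had log2 fold changes of -0.78, -0.38 and -0.77, none passing the test. Of these sort markers, only *Slamf1* overlapped between the groups. Other genes are named as examples of their list. The single-cell and ATAC-seq samples of the study were not analysed here.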

Additional observations from a re-analysis of the deposited data

How the results depend on the processing

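None of the 10 genes and none of the 123 tested genes of the other lists was called under any of the 16 alternatives, and the lowest adjusted p of one of the 10 was 0.493 (*Nlrc5*, edgeR with the replicate block). Over all genes, 9 calls became 120 with DESeq2, 15 with limma on log2(FPKM + 1) of genes averaging at least 1 FPKM, 5 with the replicate block and 0 with limma voom with sample quality weights, where 955 genes were at an unadjusted p under 0.05. Leaving out 1 library at a time gave 5 to 11 calls, the fewest without WT replicate 1. The median log2 fold change of the 10 genes stayed between 0.07 and 0.26. Of 160 recomputed values of single genes, 16 changed sign, in 7 genes. Leaving out both libraries numbered 3 gave -0.048 for *B2m* and -0.11 for *Tapbp*. *Tap2* was at 0.018 in each of the limma fits on FPKM. With 1 library left out, the estimates ran from -0.0062 to 0.35 for *Tap1*, -0.21 to 0.14 for *Tap2*, -0.16 to 0.27 for *Tapbp*, -0.024 to 0.38 for *Psmb8*, -0.049 to 0.39 for *Psmb9* and -0.10 to 0.17 for *Psmb10*. The cause of these changes was not tested. The labels do not say what equal replicate numbers share. The deviations of same-numbered samples from their group means correlated at 0.17, 0.0324 and 0.17, and 5 of 6 samples correlated best with their own number. Differently numbered ones averaged -0.0617. Deviations within a group sum to 0, so this mean largely follows from the same-numbered values and is no separate reference. These values cannot decide whether equal numbers share a source. As not every pair was above 0.1, the block is given only as an alternative. It called 5 genes in place of 9. Both libraries numbered 3 lacked Y-linked reads. *H2-K1*, *H2-D1* and *Nlrc5* were the 3 genes higher in KO within all same-numbered pairs, with estimates of 0.24, 0.30 and 0.65 under the block. With 1 library left out, KO over WT ran from 0.966 (without KO replicate 3) to 1.19 for the *Psmb10* to *Psmb7* FPKM ratio. It ran from 0.925 (without WT replicate 3) to 1.38 for *Tap1* to *Tap2* and from 0.95 (without WT replicate 3) to 1.1 for *H2-D1* to *H2-K1*. The order of the groups turned in each of these ratios. It did not turn for *Psmb8* to *Psmb5* (1.08 to 1.17) or *Psmb9* to *Psmb6*. The latter ran from 1.005 (without KO replicate 1), where the groups hardly differed, to 1.48 (without KO replicate 2). At these depths 3 counts correspond to 0.369 to 0.927 CPM, well below the level of each of the 10 genes, so that the number of samples and their spread set the limit.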
